A study of Homo sapiens with 6 samples.

Results

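Urothelium, the lining of the bladder, is kept in its layered state by a small set of transcription factors, and 9 of their genes are described here among the 20162 protein-coding genes of chromosomes 1 to 22, X and Y that were examined. The genes were chosen by name, but with earlier results of these data known. They were GATA3, PPARG, RXRA, FOXA1, ELF3 and GRHL3 for the luminal (superficial) programme, KLF5 for both layers, and TP63 and TFAP2A for the basal programme. All 9 were found in the GENCODE annotation of GRCh37. For each gene, the peaks of plasminogen activator inhibitor-1 (PAI-1) chromatin immunoprecipitation sequencing (ChIP-seq) that touched the gene or the 50 kb on either side of it were listed, a window that ran from 107 kb for FOXA1 to 366 kb for TP63.

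In normal bladder, PPARG works as a heterodimer with RXRA and, together with GATA3, FOXA1 and the epithelial factors ELF3 and GRHL3, drives genes of the barrier-forming luminal cells. TP63 marks the basal and intermediate cells from which the tissue renews itself, and loss or gain of these factors separates luminal from basal bladder cancers. PAI-1, a secreted protease inhibitor, is not a classical DNA-binding protein, and the study asked where it sits on chromatin when it is in the nucleus.

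RT112 and UM-UC-3 are established human bladder cancer cell lines. Chromatin from nuclear extracts of each was precipitated with 1 antibody against endogenous PAI-1 (clone 3F2), and the labels name no treatment. RT112 is usually described as epithelial and UM-UC-3 as mesenchymal-like. Each line gave 2 ChIP libraries, which the labels call biological replicates, and 1 input library, which was not analysed here. Each cell line stands for itself alone, so cell line and tumour type cannot be told apart.

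The lists held 96423 and 60227 peaks in RT112 against 109287 and 114094 in UM-UC-3, with lines of the same interval counted once. Read numbers per library are not given in the lists, and the methods of the study give only an average over samples, so no counting interval can be set. The deposited score of a peak is not documented and was read as a p-value or q-value on the −log10 scale. It started near 2, and the 5 most frequent scores of a library were carried by 64.4% to 65.4% of its peaks. Overlapping peaks of the replicates often had nearly the same limits. Start and end each differed by at most 1 bp in 45% of the RT112 pairs and 69.2% of the UM-UC-3 pairs, whereas between the lines this was 1.69% to 2.48%. At the 9 genes this held for 4 of 9 pairs in RT112 and 44 of 62 in UM-UC-3. Why the limits coincide was not tested, and the replicate spread and repeat shares given below measure only how these lists differ from each other.

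The 9 genes carried more PAI-1 peaks in UM-UC-3 than in RT112, and TP63 and PPARG held most of the difference. Over the 9 windows, which span 1.7 Mb, there were 30 and 21 peaks in the RT112 replicates against 76 and 86 in the UM-UC-3 replicates. Both UM-UC-3 libraries were above both RT112 libraries, with means of 81 ± 7.07 and 25.5 ± 6.36 (SD, n = 2 each), a difference of 55.5 peaks and a ratio of 3.18. The whole lists differed in the same direction by a ratio of 1.43. Per 100 kb the windows held 1.77 and 1.24 peaks in RT112, under the genome-wide density of 3.11 and 1.95, and 4.48 and 5.07 peaks in UM-UC-3, above its 3.53 and 3.69. The genome-wide densities are over full chromosome lengths, with unsequenced gaps counted, which makes them somewhat too low.

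Counts of 8 of the 9 genes did not overlap between the lines, with UM-UC-3 higher in each, which compares with 41.0% of all protein-coding genes. No gene of the 9 was higher in both RT112 libraries, against 9.18% of all genes. KLF5 was the gene whose counts overlapped. Once each count was scaled to the same number of peaks per library, 7 of the 9 were higher in UM-UC-3 against 32.4% of all genes, GATA3 joining KLF5 among those that overlapped, and 0 were higher in RT112 against 27.4%. With 2 libraries against 2, a two-sided exact permutation test cannot give a p below 0.333 and so cannot pass the usual threshold. That smallest value was reached by the 8 genes, and KLF5 gave 0.667.

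**Figure D1:**
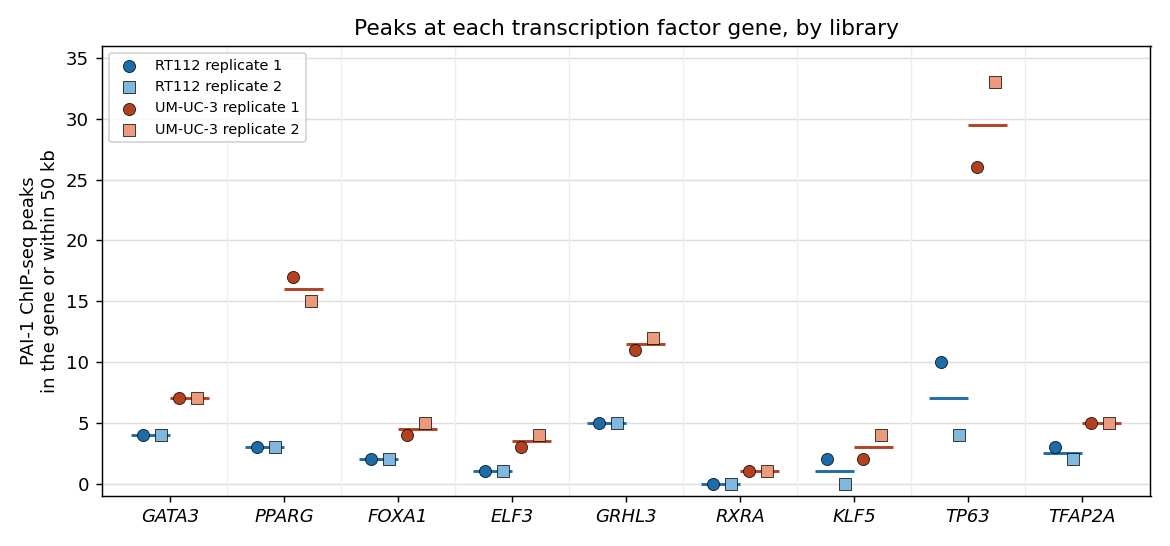
Number of PAI-1 peaks in each gene or within 50 kb of it (vertical axis) for the 9 genes, with 1 point per library and a short line at each cell line's mean. TP63 at 26 and 33 peaks and PPARG at 17 and 15 in UM-UC-3 stand above the other genes, and the KLF5 points of the cell lines overlap.

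TP63, the master regulator of basal cells and a member of the p53 family, had the highest count of the 9 in both UM-UC-3 libraries and in RT112 replicate 1. Its window held 10 and 4 peaks in the RT112 replicates against 26 and 33 in the UM-UC-3 replicates. The lines did not overlap, but the RT112 replicates were also far apart, with a mean of 7 ± 4.24 against 29.5 ± 4.95 (SD, n = 2 each). In RT112 only 1 peak was repeated in the other replicate, while 23 were in UM-UC-3. The gene lies on chr3:189349178-189615065, on the forward strand.

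The TP63 peaks of UM-UC-3 lay along the whole gene and past its end. The highest were in introns, 133 kb and 192 kb from the 5′ end, with scores of 23.8 and 27.5 at the first and 18 and 19.5 at the second. A further strong peak stood 12.8 kb upstream of the gene, between genes, with scores of 12.9 and 16.3. Over the 9 genes these were the repeated UM-UC-3 peaks ranked highest by score. A further 6 repeated peaks, with scores from 3.08 to 8.88, lay 299 kb to 311 kb from the 5′ end, in the intergenic DNA beyond the gene.

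The sequences of these 3 peaks are given from GRCh37, forward strand, 5′ to 3′, as the whole peak or its central 300 bases. Capitals mark matches, on either strand, to the motif letters listed further on.
TP63 intron, UM-UC-3, chr3:189482323-189482541: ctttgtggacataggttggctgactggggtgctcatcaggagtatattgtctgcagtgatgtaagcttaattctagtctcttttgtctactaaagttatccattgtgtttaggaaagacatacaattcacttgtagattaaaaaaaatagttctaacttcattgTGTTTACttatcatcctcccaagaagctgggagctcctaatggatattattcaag
TP63 second intronic peak, UM-UC-3, chr3:189541373-189541672: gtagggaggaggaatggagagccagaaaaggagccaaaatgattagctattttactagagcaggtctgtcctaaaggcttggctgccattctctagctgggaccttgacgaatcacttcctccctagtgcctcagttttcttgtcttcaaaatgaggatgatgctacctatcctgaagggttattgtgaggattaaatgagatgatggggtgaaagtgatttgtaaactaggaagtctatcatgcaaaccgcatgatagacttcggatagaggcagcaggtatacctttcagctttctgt
TP63 upstream peak, UM-UC-3, chr3:189336137-189336414: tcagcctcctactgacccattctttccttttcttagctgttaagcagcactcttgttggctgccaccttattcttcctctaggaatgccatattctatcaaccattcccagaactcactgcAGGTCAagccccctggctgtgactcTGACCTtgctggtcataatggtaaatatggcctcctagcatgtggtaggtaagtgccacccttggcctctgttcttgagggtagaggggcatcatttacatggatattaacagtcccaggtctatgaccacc
The first holds 1 forkhead match (TGTTTAC), the second none, and the third 2 matches to the nuclear receptor half-site AGGTCA, 1 on each strand.

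TP63 was also the only gene of the 9 with a repeated UM-UC-3 peak within 3 kb of its 5′ end. That peak ended 161 bp before the gene start and had scores of 4.51 and 4.44, higher than 52.9% and 52.7% of the peaks of its libraries. A second peak, 0.658 kb inside the gene, was listed in UM-UC-3 replicate 2 only, with a score of 3.85.

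In RT112 the repeated TP63 peak was another one, in an intron 41.3 kb from the 5′ end, with scores of 14.6 and 10.8. No UM-UC-3 peak overlapped it, and the nearest repeated peak of UM-UC-3 started 43.8 kb from the 5′ end. TP63 has an inner promoter, which gives the shorter ΔNp63 isoforms that basal cells use, and its start (transcript ENST00000354600) lies 158 kb into the gene. The nearest peak to that start was 10.9 kb before it in both UM-UC-3 libraries, with scores of 5.19 and 5.16. In RT112 it was 9.02 kb past it in replicate 1 and 60 kb before it in replicate 2, neither of them repeated. More peaks inside the gene fell before the inner start than after it in every library. The numbers were 6 against 2 and 4 against 0 in RT112, and 12 against 4 and 17 against 6 in UM-UC-3. The stretch before that start is the longer one, and these numbers were not set against length.

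TFAP2A, an AP-2 factor of basal and squamous epithelium, was the gene where RT112 had the strongest peak. Its window on chr6, reverse strand, held 3 and 2 peaks in RT112 against 5 and 5 in UM-UC-3, so the counts of the lines did not overlap although they lay close together. The RT112 peak stood 1.91 kb upstream of the 5′ end with scores of 21 and 13.3, higher than 99.1% and 95.8% of the peaks of its libraries. No UM-UC-3 peak overlapped it, and the repeated UM-UC-3 peak with the highest score in replicate 1, 6.81 there and 5.05 in replicate 2, was 26 kb from the 5′ end in a coding exon near the other end of the gene. With only the scores of at least 5 counted, the mean of TFAP2A in UM-UC-3 was lower than in RT112 by 0.5 of a peak, which turned the direction of its difference.
TFAP2A upstream, RT112, chr6:10421872-10422171: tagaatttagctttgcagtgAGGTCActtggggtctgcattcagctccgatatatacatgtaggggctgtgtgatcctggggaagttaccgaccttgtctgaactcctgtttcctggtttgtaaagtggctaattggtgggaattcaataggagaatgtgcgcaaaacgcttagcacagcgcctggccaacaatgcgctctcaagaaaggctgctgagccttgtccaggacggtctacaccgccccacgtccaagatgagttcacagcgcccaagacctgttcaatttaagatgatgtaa
The sequence is the central 300 bases of that peak on the forward strand, with a single AGGTCA match in capitals. The peak lies 6.5 kb from the start of the main transcript, which begins 4585 bp inside the annotated gene end.

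PPARG, the nuclear receptor that induces luminal differentiation, had 3 and 3 peaks in RT112 against 17 and 15 in UM-UC-3. The lines were well apart, with means of 3 ± 0 and 16 ± 1.41 (SD, n = 2 each) and a ratio of 5.33. Of the UM-UC-3 peaks, 14 were repeated, and none of these overlapped an RT112 peak. Among the strongest were peaks in an intron 20.4 kb from the 5′ end (scores 11.3 and 14.6), in a coding exon at 111 kb (11.3 and 8.05), and 3.83 kb upstream of the gene (10.8 and 9.06), which was also the nearest to the 5′ end. The intronic peak at 20.4 kb ended 732 bp before the start of another protein-coding PPARG transcript. A weaker repeated peak at 14.1 kb (2.64 and 3.85) began 384 bp past such a start. RT112 had 1 repeated peak, in an intron at 138 kb, with scores of 6.15 and 6.56.

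RXRA, the partner of PPARG, was nearly free of peaks within the 50 kb flanks. Its window of 223 kb held 0 and 0 peaks in RT112 against 1 and 1 in UM-UC-3. The UM-UC-3 peak was the same one in both libraries, in an intron 113 kb from the 5′ end, with scores of 2.64 and 4.43. In RT112 the nearest peak lay 71.9 kb from the gene in both libraries. In UM-UC-3 a repeated peak lay just outside the window, 51.3 kb upstream of the 5′ end, with scores of 5.19 and 4.33. With a flank of 100 kb the mean in UM-UC-3 was 4.5 peaks above that in RT112, in place of 1, so the low count depends on the window. A count of 0 means that no peak passed the authors' caller, and with unknown depth it sets no limit on binding. With the 50 kb flanks, the mean density in UM-UC-3 was thus 6.48 peaks per 100 kb at PPARG and 0.447 at RXRA.

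GATA3, a zinc finger factor that marks luminal urothelium, had 4 and 4 peaks in RT112 against 7 and 7 in UM-UC-3, counts that did not overlap. None of the RT112 peaks was inside the gene. The repeated RT112 peaks lay 28.1 kb upstream (scores 8.75 and 5.35) and 43.2 kb upstream in an intron of TAF3 (4.94 and 4.09). UM-UC-3 had repeated peaks within GATA3 introns at 25.7 kb and 26.6 kb from the 5′ end, with scores of 8.48 and 7.06 at the first, and its highest ones between genes beyond the gene end, at 35.3 kb (11.7 and 6.68) and 40.4 kb (6.48 and 12.5).

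FOXA1, a pioneer factor that opens chromatin in luminal cells, had 2 and 2 peaks in RT112 against 4 and 5 in UM-UC-3. It was the gene with the only locus of the 138 that carried a peak in all 4 libraries. That locus, chr14:38075113-38075606, lies about 10 kb upstream of FOXA1 (on the reverse strand) in an intron of TTC6, with scores of 15.7 and 7.85 in RT112 against 5.19 and 9.6 in UM-UC-3. The RT112 and UM-UC-3 peaks met only at their edges, and 98 bases, chr14:38075337-38075434, were under a peak in every library. They are in capitals in the RT112 peak on the forward strand.
FOXA1 upstream, RT112, chr14:38075336-38075606: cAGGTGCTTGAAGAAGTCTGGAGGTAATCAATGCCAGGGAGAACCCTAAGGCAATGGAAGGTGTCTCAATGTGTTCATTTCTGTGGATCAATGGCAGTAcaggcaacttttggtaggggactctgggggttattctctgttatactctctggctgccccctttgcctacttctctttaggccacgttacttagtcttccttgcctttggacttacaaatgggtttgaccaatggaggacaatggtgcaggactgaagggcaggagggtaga
No motif match was found in this RT112 peak. The UM-UC-3 peak of the same locus, whose sequence is not printed, held 1 AGGTCA match, outside the 98 shared bases. With a reciprocal overlap of 50% asked for, this locus was no longer shared between the lines.

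GRHL3, a grainyhead factor of the terminally differentiating surface, had 5 and 5 peaks in RT112 against 11 and 12 in UM-UC-3. These counts did not overlap. RT112 repeated 2 of its peaks, the higher in an intron at 138 kb (scores 6.6 and 4.06), and UM-UC-3 repeated 7, the highest in an intron at 30.5 kb (7.07 and 12.9). The 5′ end of the annotated gene lies 119799 bp before the start of its main transcript, and a repeated UM-UC-3 peak stood 0.907 kb past the latter, with scores of 2.64 and 9.6. At the outer 5′ end there was 1 peak, in RT112 replicate 2 only, 0.702 kb inside the gene and with a score of 2.97.

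ELF3, an ETS factor of epithelial cells, had 1 and 1 peaks in RT112 against 3 and 4 in UM-UC-3, all of them beyond the end of the gene. The RT112 peak at 28.7 kb from the 5′ end (scores 2.64 and 3.81) and a UM-UC-3 peak at 29.1 kb (2.29 and 3.39) lay side by side without overlap. The highest repeated UM-UC-3 peak was at 14 kb, with scores of 5.02 and 4.99.

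KLF5, a Krüppel-like factor of proliferating and differentiating epithelium, had 2 and 0 peaks in RT112 against 2 and 4 in UM-UC-3. The ranges met at 2, and neither RT112 peak was repeated. UM-UC-3 repeated 1 peak, 27.5 kb from the 5′ end, beyond the gene, with scores of 5.19 and 3.85. The highest UM-UC-3 score, 7.38 at 65.7 kb, was in replicate 1 only. RT112 replicate 2 had its closest peak 64.6 kb away from KLF5.

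**Figure D2:**
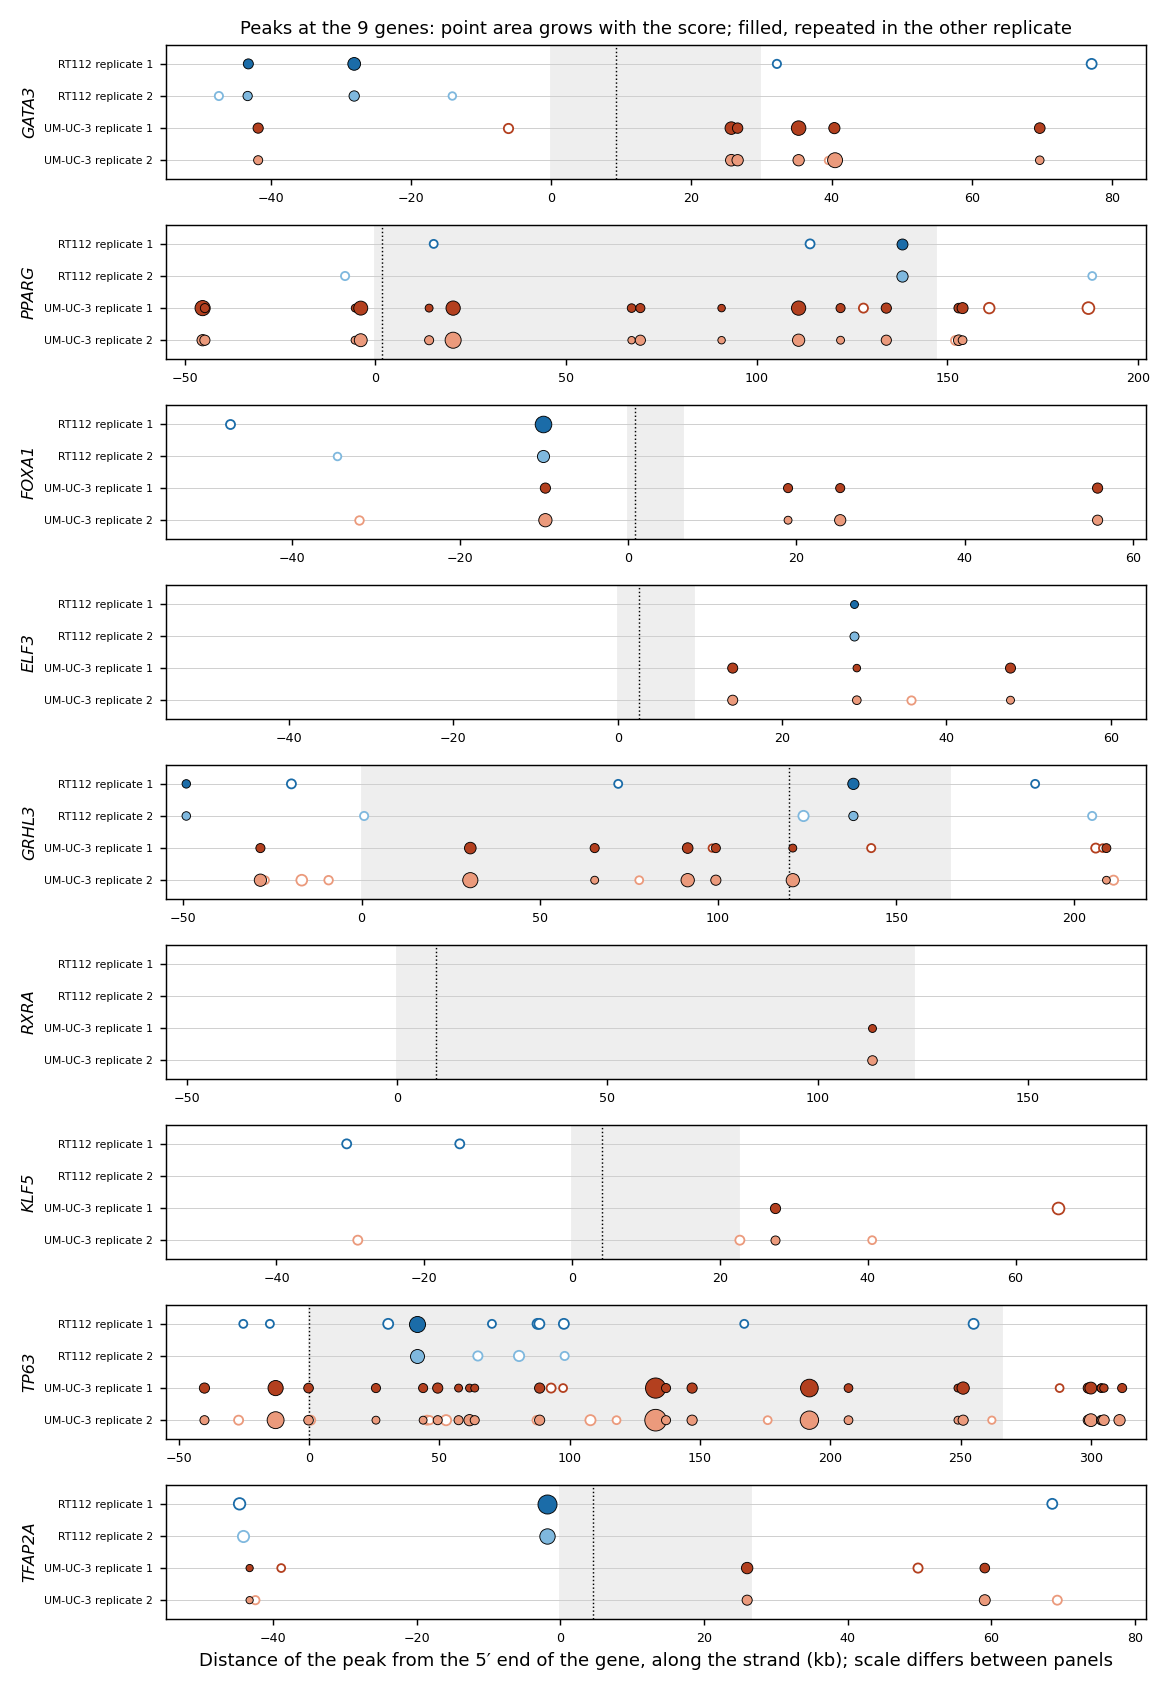
Position of every peak at the 9 genes, as distance from the 5′ end of the gene along its strand in kb, with 1 row per library, the gene in grey and the start of its main transcript as a dotted line. Point area grows with the score and filled points were repeated in the other replicate. The UM-UC-3 rows of TP63 and PPARG are filled along the whole gene, the RT112 row of TFAP2A has its largest point 1.91 kb upstream, and at FOXA1 all 4 rows have a point about 10 kb upstream.

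Most of these genes had a peak somewhere in their window, as most genes did. In RT112, 7 of the 9 had one in both replicates, and 80.9% of all protein-coding genes did. In UM-UC-3 it was 9 of 9 against 91.7%. Peaks at the 5′ end were rare: in both replicates a peak lay within 3 kb of it at 1 of the 9 genes in RT112 (TFAP2A), against 4.12% of all genes, and at 1 in UM-UC-3 (TP63), against 9.15%. Measured from the start of the main transcript instead, which was decided after the data had been seen, the numbers were 0 in RT112, where 3.94% of all genes had such a peak, and 2 in UM-UC-3 (GRHL3 and TP63), where 8.79% did.

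Since a long gene has a wide window, each gene was set beside the 200 other protein-coding genes nearest to it in length. TP63 in UM-UC-3 had more peaks than 99% of its like-length genes in both replicates, where their median was 14 and 15, while in RT112 64.5% and 76% of those genes had more peaks than TP63. PPARG changed sides in the same manner, with more peaks than 96.5% and 89% of like-length genes in UM-UC-3 but fewer than 89% and 65% of them in RT112. RXRA was low in both lines, with 99% and 95.5% of like-length genes having more peaks in RT112 against 98.5% and 98% in UM-UC-3. The difference between the lines was larger at PPARG than at 99% of its like-length genes and larger at TP63 than at 100% of them. For GATA3, FOXA1, ELF3, GRHL3, KLF5 and TFAP2A that share ran from 62.5% to 79%, and for RXRA it was 36.5%. Over the genes as a whole, 1 (GATA3) had a mean above the median of its like-length genes in RT112 and 7 did in UM-UC-3. The same share over all protein-coding genes is not given here, so these counts have no background to be read against.

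**Figure D3:**
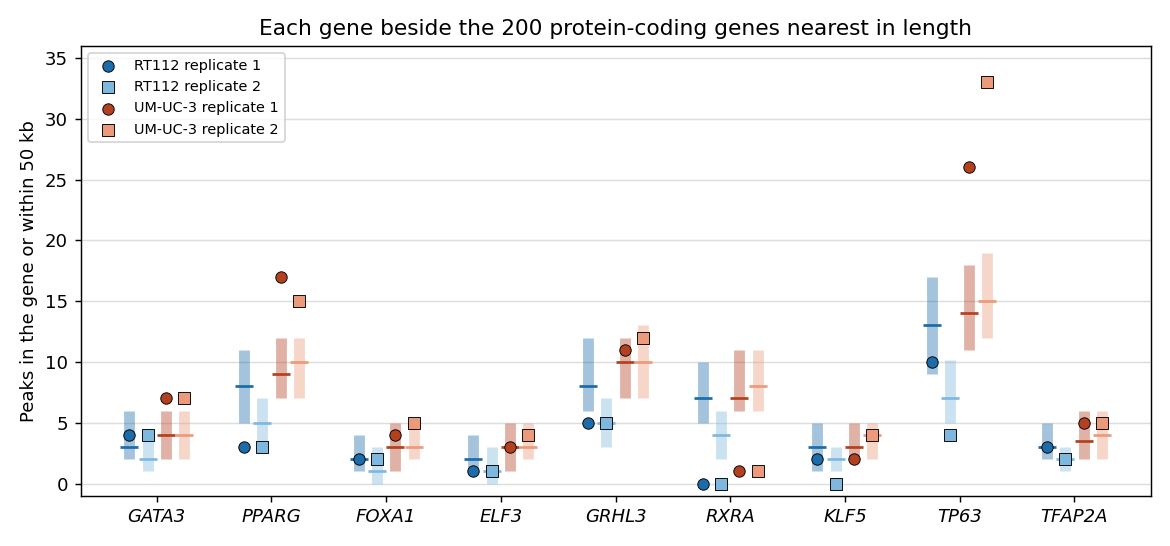
Peaks in the window of each gene (points, 1 per library) beside the 200 protein-coding genes nearest in length, with a thick bar from their lower to upper quartile and a dash at their median. TP63 and PPARG lie above the bars in UM-UC-3 and under the median dash in RT112, and RXRA lies below the bars in all 4 libraries.

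Peak density also varied along the chromosomes, so each count was divided by the count expected from the density within 5 Mb on both sides. PPARG had 0.343 and 0.518 of the expected number in RT112 and 1.6 and 1.4 times it in UM-UC-3. TP63 had 0.668 and 0.447 in RT112 against 1.69 and 2.07 in UM-UC-3. FOXA1 went from 0.577 and 0.898 to 1.47 and 1.71, on small counts. It had 2 and 2 peaks in RT112 where 3.46 and 2.23 were expected, and 4 and 5 in UM-UC-3 where 2.72 and 2.92 were. Those 3 genes were below 1 in both RT112 libraries and above 1 in both UM-UC-3 libraries. GRHL3 did not keep its difference, at 1.07 and 2.2 in RT112 against 1.62 and 1.64 in UM-UC-3, and GATA3 was between 0.859 and 1.25 in all 4 libraries. ELF3, KLF5, TFAP2A and RXRA were below 1 in all 4. Copy number of these regions was not measured here, and its part in the counts was not tested.

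**Figure D4:**
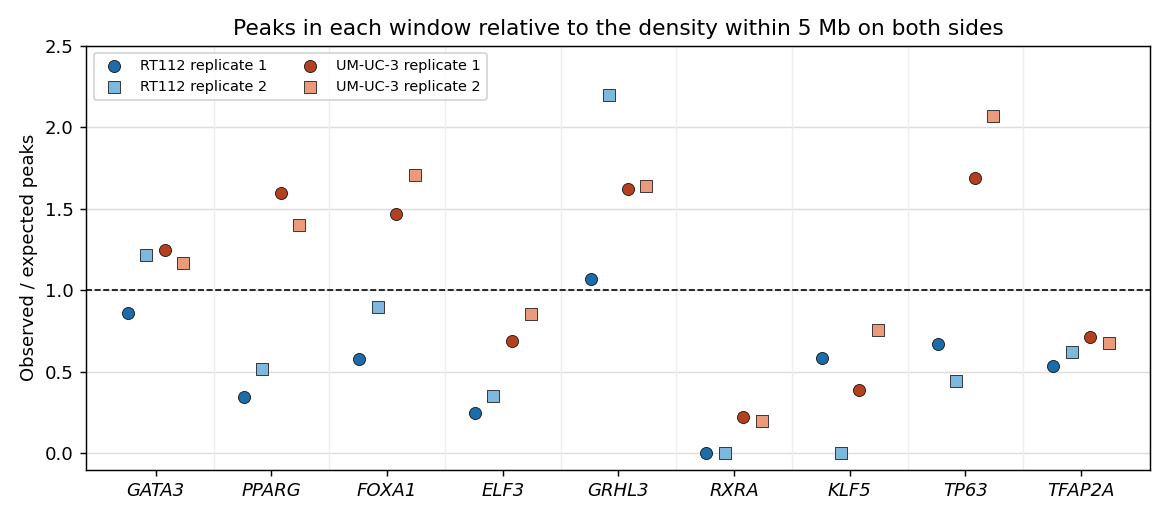
Observed over expected peaks for each gene and library, the expected number coming from the peak density within 5 Mb on both sides and the dashed line marking 1. PPARG, TP63 and FOXA1 lie under the line in RT112 and over it in UM-UC-3, whereas the GRHL3 libraries overlap.

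The cell lines shared few sites at these genes. Peaks merged into 138 loci, of which 9 were found in both RT112 replicates, 62 in both UM-UC-3 replicates and 66 in a single library. Of the repeated loci, 8 of 9 in RT112 had no UM-UC-3 peak and 60 of 62 in UM-UC-3 had no RT112 peak. Counting each line's repeated loci once, as a single sample per line, therefore gave 9 against 62, with no measure of spread. The whole lists also differed in this direction, with 36845 repeated peaks in RT112 replicate 1 against 81814 in UM-UC-3 replicate 1. At these genes 3, 2, 4 and 2 peaks of the 4 libraries overlapped a peak of the other line, which is 10% and 9.52% in RT112 against 5.26% and 2.33% in UM-UC-3. Over the whole lists the shares were 7.02% and 7.73% in RT112 against 5.98% and 5.91% in UM-UC-3.

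Fewer of the RT112 peaks than of the UM-UC-3 peaks at these genes were repeated, a difference that was not seen with scores of at least 5. In RT112 9 of 30 and 9 of 21 peaks were found again in the other replicate, or 30% and 42.9%, under the 38.2% and 61.3% of all peaks. In UM-UC-3 it was 62 of 76 and 62 of 86, or 81.6% and 72.1%, beside 74.9% and 71.7%. With only scores of at least 5 counted in both replicates, the mean repeated share was 67% in RT112 but 64.9% in UM-UC-3. That limit fell just above 4.94, a recurrent score in RT112 replicate 1 (higher than 55.2% of its peaks). It fell just below 5.19 and 5.16, recurrent in the UM-UC-3 libraries (higher than 55.6%). These 2 shares therefore come from unlike parts of the lists. Scores lay near those of their own libraries, with medians of 4.37 and 4.06 in RT112 against 3.95 and 3.85 in UM-UC-3, and 10%, 9.52%, 10.5% and 6.98% of the peaks reached 10, against 8.75% to 10.1% of all peaks. Most peaks were intronic or between genes, at 30 of 30 and 20 of 21 in RT112 and 69 of 76 and 81 of 86 in UM-UC-3.

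Letters of known binding motifs were searched on both strands in windows of 300 bp centred on each repeated peak. The motifs were AGATAA for GATA factors, TGTTTAC for forkhead factors such as FOXA1, AGGTCA for the half-site of nuclear receptors, AACCGGTT for grainyhead factors, GCCNNNGGC for AP-2, GGGNGGGG for KLF and SP factors, GACATGTC for the p53 family and TGANTCA for AP-1. Of the 62 windows in UM-UC-3, 21 held AGGTCA, which is 33.9% beside 18.5% of all repeated UM-UC-3 peaks and 13.8% of RefSeq promoters of the same length (GRCh38.p14, n = 35116). TGTTTAC stood in 7 (11.3%, beside 4.64% and 3.42%), TGANTCA in 10 (16.1%, beside 9.72% and 7.71%), and AGATAA in 7 (11.3%, beside 21.7% and 10.3%). AP-2 letters were in 2 windows (3.23%, beside 3.38% and 23.2%), KLF letters in 1 (1.61%, beside 5.1% and 37.7%), p53 letters in 1 (1.61%, beside 0.295% and 0.228%) and grainyhead letters in 0 (beside 0.0403% and 0.134%). Of the 9 windows in RT112, 2 held AGATAA (22.2%, beside 19.5% of all repeated RT112 peaks), 2 held AGGTCA (22.2%, beside 18.1%) and none held the others, which were in 0.0326% to 9.52% of all repeated RT112 peaks. The median GC content was 41.8% in UM-UC-3 beside 40.3% for all repeated peaks and 49% in RT112 beside 43%. A match describes the letters only, and several windows come from a single gene, 23 of the 62 from TP63 and 14 from PPARG.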

How the data were processed

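The 4 peak lists, 2 per cell line, were analysed; the 2 inputs were not analysed here. Per the submitters' processing notes and the methods of the study, the authors trimmed reads with Trimmomatic, aligned them to hg19 with Bowtie 1.1.1, removed duplicates with Picard and called peaks with MACS2 2.1.0.20140616. Use of the input in calling and pooling of reads are not given in the sources used here. A legend of the study names a false discovery rate limit for bound probe sets, but not whether these lists were made with it. The deposited score was read as a −log10 p-value or q-value, which of them is not stated, and its scale may differ between libraries, so fixed limits of 5 and 10 can select unequal parts of the lists.

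Lines with the same interval were counted once, at the highest score. All peak ends lay within the GRCh37 chromosomes. Genes came from GENCODE 44 lifted to GRCh37, and a gene's start is its outermost 5′ end unless the main (Ensembl canonical) transcript is named. A peak counted for a gene when it touched the gene or the 50 kb beside it, and as repeated when it shared at least 1 bp with a peak of the other replicate. The density within 5 Mb left out the gene's own window. Cell lines were compared over libraries with an exact two-sided permutation test. Counting and overlap were tested on simulated data. Scripts used Python 3.11.15, numpy 2.4.6 and pandas 2.3.3.

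The 9 genes, the motifs and 3 lists of related genes were chosen with earlier results of these data known. For each gene and line the plan was to name the peak nearest to the start, the highest-scoring peak and those within 3 kb of the start. The text leaves some nearest and highest-scoring peaks out, such as the peak 6.22 kb upstream of GATA3 in UM-UC-3 replicate 1. Some repeated peaks were added after their values were seen. Sequences are those of the 3 best-ranked repeated peaks per line and the locus in all 4 libraries, shown by its RT112 peak; 1 RT112 peak is not reported here. The labels number replicates 1 and 2 in each line without saying that a number marks a shared batch. Replicate 1 lay 4.5 peaks above its line's mean over the 9 genes in RT112 and -5 from it in UM-UC-3, and the numbers were not used to pair libraries.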

Additional observations from a re-analysis of the deposited data

How the results depend on the processing

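The direction of the summed difference, UM-UC-3 minus RT112 over the 9 genes, was kept under every alternative run. It was 55.5 peaks as reported, 28 with a flank of 3 kb, 37.5 with 10 kb, 67.5 with 100 kb, 26.5 with scores of at least 5, 10.5 with the highest 25% of scores, 37.5 scaled to the library totals and 35.6 scaled to the density within 5 Mb. Without TP63 it was 33, without PPARG 42.5 and without both 20, alternatives chosen after seeing the data. Leaving out a library gave 50.5 to 60.5. With the replicate number as a block the paired differences were 46 and 65, with a mean of 55.5, and 2 pairs cannot give an exact p below 0.5. The 8 genes higher in UM-UC-3 became 5 with a flank of 3 kb, where 26.2% of all genes were, and 5 with scores of at least 5, where 37.2% were. Genes with a peak in both RT112 replicates fell from 7 to 4 with 3 kb and with 10 kb, where 40.4% and 50.2% of all genes had one. In UM-UC-3 they fell from 9 to 6 with 3 kb (53.7% of all genes) and stayed at 9 with 10 kb (65.7%). With scores of at least 5 they were 6 in RT112 (54.7% of all genes) and 6 in UM-UC-3 (74%).

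At the gene start, RT112 had 0 genes within 1 kb (1.11% of all genes) and 0 from the main transcript (3.94%) in place of 1. UM-UC-3 had 3 from any coding transcript (PPARG, GRHL3 and TP63, against 15.9% of all genes), 3 within 10 kb (35%) and 2 from the main transcript (8.79%) in place of 1. Genes above the median of like length became 2 in RT112 and 4 in UM-UC-3 with scores of at least 5, and 1 to 2 in RT112 with a library left out, 2 being the value without RT112 replicate 1. These counts too have no share over all protein-coding genes beside them. The repeated share, 36.4% in RT112 and 76.8% in UM-UC-3 as a mean of the replicates, became 67% and 64.9% with scores of at least 5. The share overlapping the other line went from 9.76% to 2.38% in RT112 and from 3.79% to 0.658% in UM-UC-3 with a reciprocal overlap of 50%, and to 13.4% in RT112 with scores of at least 5. Of 117 recomputed differences of single genes 106 were above 0, 8 were 0 (at FOXA1, ELF3, RXRA and TFAP2A, with narrower flanks or higher scores) and 3 turned in direction. The last were GRHL3 scaled to the density within 5 Mb (-0.0449) and TFAP2A with scores of at least 5 (-0.5) and with the highest 25% of scores (-1.5). The cause of these changes was not tested.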

Other observations

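The 17 relatives of the same families (such as PPARA, FOXA2, TFAP2C and GRHL2) held 72 and 43 peaks in RT112 against 87 and 91 in UM-UC-3, and 6 of them were higher in both UM-UC-3 libraries and 2 in both RT112 libraries. EHF, an ETS factor like ELF3, had 5 and 4 peaks in RT112 against 13 and 16 in UM-UC-3, and it was named after its values were seen. Whether the families differ from the 9 genes was not tested.

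Of the luminal markers, uroplakins and keratins among them, 14 of 15 names were matched, with 52 and 45 peaks in RT112 against 54 and 67 in UM-UC-3. Of these 4 were higher in both UM-UC-3 libraries and 1 in both RT112 libraries, the latter being ERBB3 with 5 and 6 against 2 and 2 peaks. The 15 basal markers held 77 and 40 peaks in RT112 against 78 and 79 in UM-UC-3, with 6 and 1 non-overlapping. Genes that lie close together, KRT14, KRT16 and KRT17 among them, share neighbouring windows and so share peaks, which the sums count more than once. These 3 were all among the 6 basal markers higher in UM-UC-3, so those 6 are not separate loci. In all 3 lists the shares higher in UM-UC-3 lie near or under the 41.0% of all protein-coding genes, the basal share being the nearest. In RT112, 9.18% of all genes were higher.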
